A study of Mus musculus with 12 samples.

Results

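The Ugt2 and Ugt3 glucuronosyltransferase genes and Ugdh, the gene of UDP-glucose dehydrogenase, were examined in mouse liver. The members were 10 of the 51912 genes in the deposited expected counts: Ugt2a3, Ugt2b1, Ugt2b5, Ugt2b34, Ugt2b35, Ugt2b36, Ugt2b38, Ugt3a1, Ugt3a2 and Ugdh. They were chosen by symbol, with the Ugt1a genes left out. RNA of 12 livers, 3 adult male mice in each of 4 groups, was read at the 3′ ends of the messenger RNAs. WT mice received the corn oil vehicle or CITCO, an activator of the human constitutive androstane receptor (CAR), at 10 mg/kg. Mice carrying human CAR and the human pregnane X receptor (hCAR/hPXR), and mice described as lacking Car and mouse PXR but carrying human PXR (Car KO/hPXR), received CITCO at the same dose. All injections were intraperitoneal, daily for 4 days, and livers were taken on day 5. Vehicle libraries of the humanised genotypes were not analysed here, so genotype and the response to CITCO cannot be told apart in those mice. The humanised lines were made on a C57BL/6NTac background, and the strain of the WT mice is not given in the sources used here.

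Glucuronosyltransferases sit in the membrane of the endoplasmic reticulum and join a sugar from a nucleotide donor to small lipophilic molecules such as bilirubin, steroids, bile acids and drugs, which makes them soluble enough for bile and urine. The Ugt2 enzymes use UDP-glucuronate and are abundant in hepatocytes, with steroids and bile acids among their substrates. Ugdh makes UDP-glucuronate from UDP-glucose in the cytosol, while Ugt3 enzymes are relatives that take other UDP-sugars as donors. CAR and PXR are nuclear receptors known for switching on drug-metabolising genes.

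Depth was modest. The 3 corn oil libraries held between 1451214 and 2341572 counts, the WT CITCO libraries between 1370357 and 1654448, the hCAR/hPXR libraries between 1167027 and 2012820, with those of Car KO/hPXR mice between 1172227 and 1499517. Levels are given as TMM-scaled counts relative to the library total (CPM) and are not divided by transcript length, because each transcript is read at its end. A level of 3 counts corresponded to between 1.34 and 2.5 CPM. Such floors cover counting error only.

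The genotype labels were checked on the receptor genes. Mouse Nr1i2, which encodes PXR, had 199, 100 and 155 counts with corn oil and 114, 113 and 126 in WT mice given CITCO. It had 0, 1 and 0 counts in hCAR/hPXR mice and 2, 0 and 0 in Car KO/hPXR mice. Mouse Nr1i3, which encodes CAR, had 287, 104 and 215 counts with corn oil, 184, 116 and 207 in WT mice given CITCO, 2, 0 and 6 in hCAR/hPXR mice and 3, 2 and 5 in Car KO/hPXR mice. Both genes were thus near 0 in every humanised library, and each was called lower than in WT CITCO in both genotypes (edgeR quasi-likelihood test, adjusted p between 1.69e-08 and 4.13e-06) and under all 13 alternatives. Nr1i3 overlaps Tomm40l, and reads were counted on mouse genes, so the human receptors themselves were not measured.

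Known target genes of these receptors differed between the CITCO-treated genotypes. Cyp2b10, a cytochrome P450 known for its control by CAR, had 145.6, 166.6 and 153.5 CPM in hCAR/hPXR mice, at most 4.15 CPM in any WT CITCO library and at most 2.46 CPM in any Car KO/hPXR library. It reached the 6.5 CPM of the filter on low counts in the hCAR/hPXR libraries alone. The group where Cyp2b10 was high thus decided that it was tested. Its calls below stand as a description, also where they held under alternatives. Cyp2c29 was higher in hCAR/hPXR than in WT CITCO mice by 1.93 on the log2 scale and Cyp3a11 by 2.02 (adjusted p = 0.000149 and 0.000404, edgeR). None of the 3 control genes was called between WT CITCO and WT corn oil by edgeR, with 2 at an unadjusted p under 0.05 and 0 called by DESeq2 or limma. The edgeR calls of the 3 genes in hCAR/hPXR against WT CITCO held under each of 13 alternatives. In Car KO/hPXR against WT CITCO, Cyp3a11 had 0.99 (adjusted p = 0.114, edgeR) with no overlap, and of the 3 tools only DESeq2 called it. In hCAR/hPXR against Car KO/hPXR, edgeR, DESeq2 and limma called Cyp2b10 and Cyp2c29 higher (Cyp2c29 by 2.36 on the log2 scale, adjusted p = 1.77e-05, edgeR), and both calls held under all 13 alternatives. Cyp3a11 had 1.03 there (adjusted p = 0.0673, edgeR) with no overlap, and was called by DESeq2 alone of the 3 tools.

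Hepatocyte markers were high in every library, with a summed level between 24550 and 39590 CPM over 6 genes and Alb the most abundant. The hCAR/hPXR libraries gave 24550, 25060 and 38110 CPM. Other liver cells were present at lower levels: the summed markers ran from 112.0 to 203.5 CPM for Kupffer cells (Clec4f highest), 223.3 to 304.1 CPM for sinusoidal endothelium (Kdr), 209.7 to 408.8 CPM for stellate cells (Dcn), 12.7 to 27.5 CPM for cholangiocytes (Sox9) and 0 to 8.35 CPM for lymphocytes (Trbc2). Pericentral markers summed to between 1864 and 3216 CPM (Glul), periportal markers to between 4944 and 7707 CPM (Pck1) and erythroid markers to between 1859 and 3985 CPM (Hba-a2). Kidney tubule markers summed to 24.0 CPM in WT corn oil replicate 2 and 3.18 CPM in Car KO/hPXR replicate 1, carried mainly by Kap, and were at 0 elsewhere, with Umod and Slc12a1 at 0 in every library. Pancreas markers summed to between 10.0 and 28.2 CPM, led by Cela1, with Prss2 and Cpa1 at 0 throughout. In bulk liver RNA, fewer cells of a type and less RNA per cell cannot be told apart.

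The Ugt2 genes lie together. On GRCm38, 10 annotated Ugt2 genes occupied 601 kb of chromosome 5, from 86889767 to 87490871, 9 of them on the minus strand, with 15 pseudogenes between them. Ugt2b35 (87000860 to 87013275) was the gene on the plus strand. Each of the 7 Ugt2 members had 6 exons and a coding sequence between 1587 and 1602 bases. Ugt3a1 (9276888 to 9315032) and Ugt3a2 (9335550 to 9370955) were neighbours on the plus strand of chromosome 15 with 7 exons each. Ugdh, with 12 exons, lay on chromosome 5 at 65413221 to 65435949, 21.5 Mb from the cluster.

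Several of these genes are close copies, which matters because RSEM divides reads that match more than 1 gene. Ugt2b5 and Ugt2b38 shared 97.0% of their coding bases, Ugt2b5 and Ugt2b37 94.7%, and Ugt3a1 and Ugt3a2 93.4%. The last 300 bases of the transcript, where these libraries are read, were less alike, at 84.3%, 82.7% and 66.0% for the same pairs. Estimated counts were not whole (by over 0.005) in all 12 libraries for Ugt2b5 and Ugt2b38, in 11 for Ugt2a3, Ugt2b34 and Ugt2b36, and in 10 for Ugt2b35, against 2 for Ugt3a1 and Ugt3a2, 1 for Ugdh and 0 for Ugt2b1. Over all genes 13.8% of the values above 0 were not whole. In the last 500 bases of 1 transcript a gene, Ugt2b38 shared 0 of 451 windows of 50 bases with the other Ugt2 and Ugt3 genes, and Ugt2b5 shared 14 (3.1%), with Ugt2b37. Because the counts were nevertheless not whole, the split between these copies is treated as uncertain, and the Ugt2b genes are also given as a sum.

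Promoters from RefSeq on GRCm38.p6 were matched for 9 of the 10 members, Ugt3a2 being the exception. The 250 bases before the start are printed for Ugt2b35, Ugt2b36 and Ugt2b5, whose levels were among the most alike across libraries, and for Ugt2b38 and Ugt2b37, the near copies of Ugt2b5. Capitals mark AGGTCA, a core that nuclear receptors are known to bind, and in Ugt2b37 also TGAACT, the reverse complement of the related AGTTCA. Ugt2b35 is on the plus strand at chr5:87000610-87000859. The others are on the minus strand, Ugt2b36 at chr5:87092556-87092805, Ugt2b5 at chr5:87140341-87140590, Ugt2b38 at chr5:87424204-87424453 and Ugt2b37 at chr5:87254789-87255038.
Ugt2b35: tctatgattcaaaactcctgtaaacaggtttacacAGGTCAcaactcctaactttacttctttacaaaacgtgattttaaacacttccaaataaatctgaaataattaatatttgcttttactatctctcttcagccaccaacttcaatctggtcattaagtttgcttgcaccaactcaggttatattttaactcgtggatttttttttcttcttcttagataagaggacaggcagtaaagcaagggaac
Ugt2b36: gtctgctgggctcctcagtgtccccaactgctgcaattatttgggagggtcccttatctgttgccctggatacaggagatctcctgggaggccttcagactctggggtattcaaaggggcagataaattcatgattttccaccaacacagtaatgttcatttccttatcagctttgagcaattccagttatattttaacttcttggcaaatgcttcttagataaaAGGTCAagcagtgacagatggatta
Ugt2b5: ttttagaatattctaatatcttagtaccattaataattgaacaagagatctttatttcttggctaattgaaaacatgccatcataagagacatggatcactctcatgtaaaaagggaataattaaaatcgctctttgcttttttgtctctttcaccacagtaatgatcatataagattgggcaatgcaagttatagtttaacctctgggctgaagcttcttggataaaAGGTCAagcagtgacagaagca
Ugt2b38: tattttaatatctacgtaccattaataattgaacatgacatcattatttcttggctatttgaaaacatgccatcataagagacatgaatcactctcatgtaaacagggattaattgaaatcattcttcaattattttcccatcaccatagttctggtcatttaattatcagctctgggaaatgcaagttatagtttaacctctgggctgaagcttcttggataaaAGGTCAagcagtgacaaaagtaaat
Ugt2b37: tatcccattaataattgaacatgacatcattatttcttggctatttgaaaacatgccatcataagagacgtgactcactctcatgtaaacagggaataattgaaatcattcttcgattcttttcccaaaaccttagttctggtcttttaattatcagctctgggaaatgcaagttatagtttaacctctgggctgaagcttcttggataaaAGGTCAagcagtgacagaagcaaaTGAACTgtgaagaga

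Counted from the start, AGGTCA began at -25 in Ugt2b36 and Ugt2b38, -22 in Ugt2b5, -39 in Ugt2b37 and -215 in Ugt2b35. The Ugt2b38 sequence was 90% identical to that of Ugt2b37 and 84.8% identical to that of Ugt2b5, against 67.2% between Ugt2b35 and Ugt2b5. Searched on both strands from 250 bases before to 50 bases after the start, AGGTCA was present in 4 of the 9 member promoters, and in 16.3% of all 32851 mouse promoters. GTTAAT was present in 2 (Ugt2a3 and Ugt3a1, 7.1% of all), TGACNNNGC in 1 (Ugdh, 12.4%), TATAAA in 1 (Ugt3a1, 13.6%), AGTTCA in 1 (Ugt2b1, 14%), and TTCNNNGAA and CAAAGTCCA in 0 (8.3% and 0.475%). TGACCT, the reverse complement of AGGTCA, shares its opening TGAC with TGACNNNGC, so the same bases can match both. A match is a description, not a site or a cause, and no match says only that these letters are not in this window.

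All 10 genes passed the filter on low counts, Ugt2b38 through 7 libraries, none of them Car KO/hPXR. The mean level over the 12 libraries was 647.1 CPM for Ugt2b1, 578.4 for Ugt2b5, 424.7 for Ugt2b36, 340.3 for Ugt2b34, 149.3 for Ugt2a3, 137.9 for Ugt2b35, 110.6 for Ugt3a2, 99.9 for Ugdh, 33.3 for Ugt3a1 and 11.2 for Ugt2b38. The highest library exceeded the lowest by 1.42 times for Ugt2b36 to 2.63 times for Ugt3a1 among the 9 other than Ugt2b38, whose lowest library was under the floor of 3 counts. Ugt2b38 had the lowest mean of the 10.

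**Figure D1:**
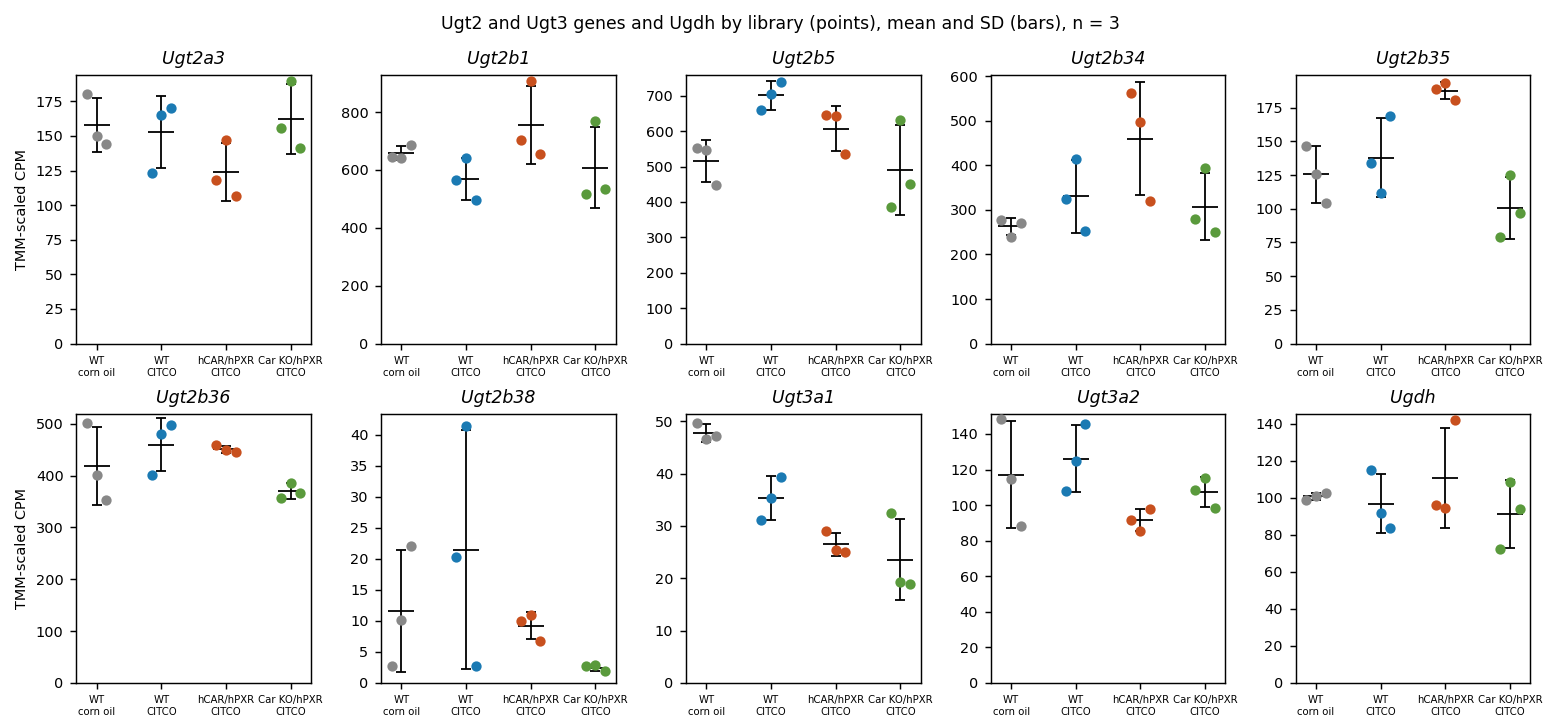
Level of each gene in every library, in TMM-scaled CPM on a linear axis from 0, with the 3 libraries of each group as points and the group mean and SD. The hCAR/hPXR libraries of Ugt2b35 lie between 181.0 and 193.3 CPM, above every library of the other groups.

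Ugt2b35 had 146.5, 125.6 and 104.4 CPM with corn oil, 133.7, 111.4 and 168.9 in WT CITCO mice, 188.6, 193.3 and 181.0 in hCAR/hPXR mice and 79.4, 125.3 and 96.95 in Car KO/hPXR mice. All hCAR/hPXR libraries were above all others. The group means fell in the order hCAR/hPXR (187.6 ± 6.19 CPM, SD, n = 3), WT CITCO (138.0 ± 29.0), WT corn oil (125.5 ± 21.0) and Car KO/hPXR (100.5 ± 23.1), and the neighbours among the last 3 did not differ beyond their spread.

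Ugt2b36 had 500.7, 401.2 and 353.8 CPM with corn oil, 401.4, 479.6 and 497.9 in WT CITCO mice, 458.7, 448.7 and 444.8 in hCAR/hPXR mice and 357.4, 386.6 and 365.5 in Car KO/hPXR mice. The Car KO/hPXR libraries lay below both other CITCO groups, but the corn oil libraries spanned them all. In order, WT CITCO (459.6 ± 51.3 CPM, SD, n = 3), hCAR/hPXR (450.8 ± 7.16), WT corn oil (418.6 ± 75.0) and Car KO/hPXR (369.8 ± 15.1) each overlapped the next within 1 SD.

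Ugt2b5 had 552.2, 547.6 and 446.9 CPM with corn oil, 658.9, 705.2 and 738.8 in WT CITCO mice, 645.1, 642.9 and 534.2 in hCAR/hPXR mice and 386.5, 631.8 and 450.6 in Car KO/hPXR mice. The 3 WT CITCO libraries were above all 9 others. The means were 701.0 ± 40.2 CPM (SD, n = 3) in WT CITCO, 607.4 ± 63.4 in hCAR/hPXR, 515.6 ± 59.5 in WT corn oil and 489.6 ± 127.2 in Car KO/hPXR, in which each overlapped the next within 1 SD.

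Ugt2b1 had 646.3, 642.3 and 684.7 CPM with corn oil, 563.7, 641.7 and 497.4 in WT CITCO mice, 703.1, 907.7 and 656.4 in hCAR/hPXR mice and 517.8, 769.0 and 535.5 in Car KO/hPXR mice. The WT CITCO libraries lay below the corn oil and the hCAR/hPXR libraries, and the Car KO/hPXR libraries overlapped all 3 other groups. The order was hCAR/hPXR (755.7 ± 133.7 CPM, SD, n = 3), WT corn oil (657.8 ± 23.4), Car KO/hPXR (607.4 ± 140.2) and WT CITCO (567.6 ± 72.2), with neighbours within their spread.

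Ugt2b34, the closest relative of Ugt2b1 among these genes, had 276.7, 240.3 and 271.7 CPM with corn oil, 324.4, 414.2 and 252.5 in WT CITCO mice, 563.3, 497.6 and 319.9 in hCAR/hPXR mice and 278.5, 393.7 and 250.5 in Car KO/hPXR mice. Of the hCAR/hPXR libraries 2 were above all others and the third was not. The means were 460.3 ± 125.9 CPM (SD, n = 3) in hCAR/hPXR, 330.3 ± 81.0 in WT CITCO, 307.5 ± 75.9 in Car KO/hPXR and 262.9 ± 19.7 in WT corn oil, again with neighbours within their spread.

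Ugt2b38 had 2.65, 10.1 and 22.1 CPM with corn oil, 20.3, 41.4 and 2.79 in WT CITCO mice, 9.98, 10.9 and 6.76 in hCAR/hPXR mice and 2.66, 2.81 and 1.91 in Car KO/hPXR mice. The Car KO/hPXR values are those of 4.18, 3.36 and 2.33 estimated counts, at about the floor of 3 counts. Both WT groups ranged widely, from 3.96 to 59.9 estimated counts with CITCO, and overlapped each of the other groups. Of the related genes outside the 10, Ugt2b37 had at most 10.4 estimated counts in any library and 0 in all Car KO/hPXR libraries, Ugt2a2 had 2 counts in 1 library and Ugt2a1 had 0 in all 12.

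Ugt2a3, which lies in the same cluster, had 118.5, 146.9 and 106.3 CPM in hCAR/hPXR mice, and its means ran from 162.2 ± 25.1 CPM (SD, n = 3) in Car KO/hPXR to 158.0 ± 19.4 in WT corn oil, 152.9 ± 25.9 in WT CITCO and 123.9 ± 20.8 in hCAR/hPXR, with neighbours within their spread. Ugdh, the source of the glucuronate donor, had 98.98, 100.8 and 102.6 CPM with corn oil, 114.8, 91.96 and 83.7 in WT CITCO mice, 95.9, 94.3 and 141.8 in hCAR/hPXR mice and 72.1, 108.5 and 93.6 in Car KO/hPXR mice. The groups of Ugdh overlapped in all 4 comparisons. Its means, in order, were 110.6 ± 27.0 CPM (SD, n = 3) in hCAR/hPXR, 100.8 ± 1.83 in WT corn oil, 96.8 ± 16.1 in WT CITCO and 91.4 ± 18.3 in Car KO/hPXR, all within their spread.

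Ugt3a1, whose human counterpart transfers N-acetylglucosamine, had 49.7, 46.5 and 47.1 CPM with corn oil, 31.1, 35.4 and 39.4 in WT CITCO mice, 29.0, 25.5 and 25.0 in hCAR/hPXR mice and 32.6, 19.2 and 18.9 in Car KO/hPXR mice. The corn oil libraries were above all 9 CITCO libraries, and the WT CITCO libraries were above the hCAR/hPXR libraries. From corn oil (47.8 ± 1.70 CPM, SD, n = 3) and WT CITCO (35.3 ± 4.13) the means descended to hCAR/hPXR (26.5 ± 2.19) and Car KO/hPXR (23.6 ± 7.80), and only the last 2 were within their spread.

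Ugt3a2, whose human counterpart uses UDP-glucose and UDP-xylose, had 148.2, 114.9 and 88.2 CPM with corn oil, 107.7, 125.0 and 145.6 in WT CITCO mice, 91.7, 85.6 and 97.6 in hCAR/hPXR mice and 108.5, 115.2 and 98.6 in Car KO/hPXR mice. The hCAR/hPXR libraries lay below those of both other CITCO groups. The means were 126.1 ± 19.0 CPM (SD, n = 3) in WT CITCO, 117.1 ± 30.1 in WT corn oil, 107.4 ± 8.39 in Car KO/hPXR and 91.6 ± 5.98 in hCAR/hPXR, of which hCAR/hPXR and Car KO/hPXR, the last neighbours, were apart by more than 1 SD of each.

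The difference that human CAR makes where human PXR is present was examined in hCAR/hPXR against Car KO/hPXR mice after CITCO. Ugt2b35 was higher in hCAR/hPXR mice by 0.91 on the log2 scale (SE 0.19, 95% interval 0.50 to 1.31, adjusted p = 0.0372 by the edgeR quasi-likelihood test, Benjamini-Hochberg), and its 3 libraries were above the other 3. It was the 1 member of 10 called, at an adjusted p under 0.05 and a fold over 1.5, where 0.582% of the 8594 genes tested were called, and a single call among 10 genes does not describe the family. DESeq2 and limma also called 1 member. At an unadjusted p under 0.05 there were 4 members (10.6% of all genes), and the groups did not overlap for 4 members, 3 higher and 1 lower (15% of all genes). Both tallies include Ugt2b38, which lay at about the floor of counts in Car KO/hPXR mice and passed the filter through other groups.

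The Ugt2b35 call depended on the libraries used. It was lost without hCAR/hPXR replicate 1 (log2 fold change 0.89, adjusted p = 0.125, edgeR), replicate 2 (0.88, 0.086) or replicate 3 (0.93, 0.0935), and without Car KO/hPXR replicate 1 (0.75, 0.213) or replicate 3 (0.88, 0.174). It was lost by a narrower margin without the TMM factor (0.89, adjusted p = 0.0612). The 13 alternatives gave log2 fold changes between 0.74 and 1.09 and adjusted p between 0.000507 and 0.213, called in 6, so the direction was the same in all of them. The number of genes called in this comparison, 50, became 23 and 19 without hCAR/hPXR replicates 1 and 3, and 19 and 10 without Car KO/hPXR replicates 1 and 3. The members at an unadjusted p under 0.05 became 1 without hCAR/hPXR replicate 1 or Car KO/hPXR replicate 1 and 2 without Car KO/hPXR replicate 3.

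The summed level of neutrophil markers was higher in the hCAR/hPXR libraries than in all others, mainly through S100a8 and S100a9. The summed level of 4 marker genes, 2 of which passed the filter, was 3.58, 6.35 and 5.43 CPM with corn oil, 9.08, 7.61 and 2.81 in WT CITCO mice, 33.7, 34.1 and 49.2 in hCAR/hPXR mice and 8.26, 10.9 and 5.75 in Car KO/hPXR mice. S100a8 and S100a9 reached the 6.5 CPM of the filter in the hCAR/hPXR libraries alone. The group where they were high thus decided that they were tested, and their differences stand as a description. S100a8 was the most abundant and was called higher in hCAR/hPXR against Car KO/hPXR, by 2.16 on the log2 scale (adjusted p = 0.0242, edgeR, 0.00138 to 0.13 over 12 alternatives). That call was lost without hCAR/hPXR replicates 2 (adjusted p = 0.0852) or 3 (0.107), or Car KO/hPXR replicates 1 (0.13), 2 (0.0605) or 3 (0.114). S100a8 was also called higher in hCAR/hPXR than in WT CITCO mice, by 2.54 (adjusted p = 0.00961, edgeR, 7.78e-05 to 0.064 over 12 alternatives), a call lost without WT CITCO replicate 3 (0.0535) or hCAR/hPXR replicates 2 (0.051) or 3 (0.064). S100a9 had log2 differences of 2.12 and 2.49 in these comparisons and was not called (adjusted p = 0.13 and 0.101). No marker was at 0 in all libraries, but Retnlg was at 0 in the WT CITCO and Car KO/hPXR libraries and Ngp in the Car KO/hPXR libraries. Sinusoidal endothelium markers, 6 genes that all passed the filter and led by Kdr, summed to less in the hCAR/hPXR libraries (223.3, 247.6 and 256.1 CPM) than in the Car KO/hPXR libraries (277.0, 263.0 and 291.6). The same sum was 254.9, 285.6 and 275.1 CPM in WT CITCO mice and 304.1, 272.9 and 269.3 with corn oil. None of these markers was at 0 in any library. Only Kdr and Ptprb had lower hCAR/hPXR means (105.4 and 57.9 CPM) beside their Car KO/hPXR means (139.8 and 68.2). Stab2 (24.9 against 24.4 CPM), Clec4g (35.8 against 32.0), Lyve1 (5.8 against 3.4) and Pecam1 (12.5 against 9.3) went the other way. The part of either cell type in the Ugt2b35 difference was not tested.

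No other member was called by edgeR in this comparison with the filter on low counts. With no filter edgeR also called Ugt2b38 (adjusted p = 0.0244). Ugt2b34 had a log2 difference of 0.59 (SE 0.22, adjusted p = 0.319, edgeR), Ugt2b38 of 2.01 (SE 0.90, adjusted p = 0.438, and 0.51 by limma on transformed values) and Ugt2a3 of -0.39 (SE 0.18, adjusted p = 0.455), none of which passed the adjustment. Ugt2b36 (0.29, adjusted p = 0.539) and Ugt3a2 (-0.23, adjusted p = 0.739) had groups that did not overlap, as did Ugt2b38 and Ugt2b35. The log2 fold change was positive for 8 members, Ugt2b38 among them, and negative for 2, with a median of 0.30 against 0.01 over all genes tested. For 7 of the 10 the 95% interval lay within a 2-fold change, and for 0 within a 1.5-fold change.

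**Figure D2:**
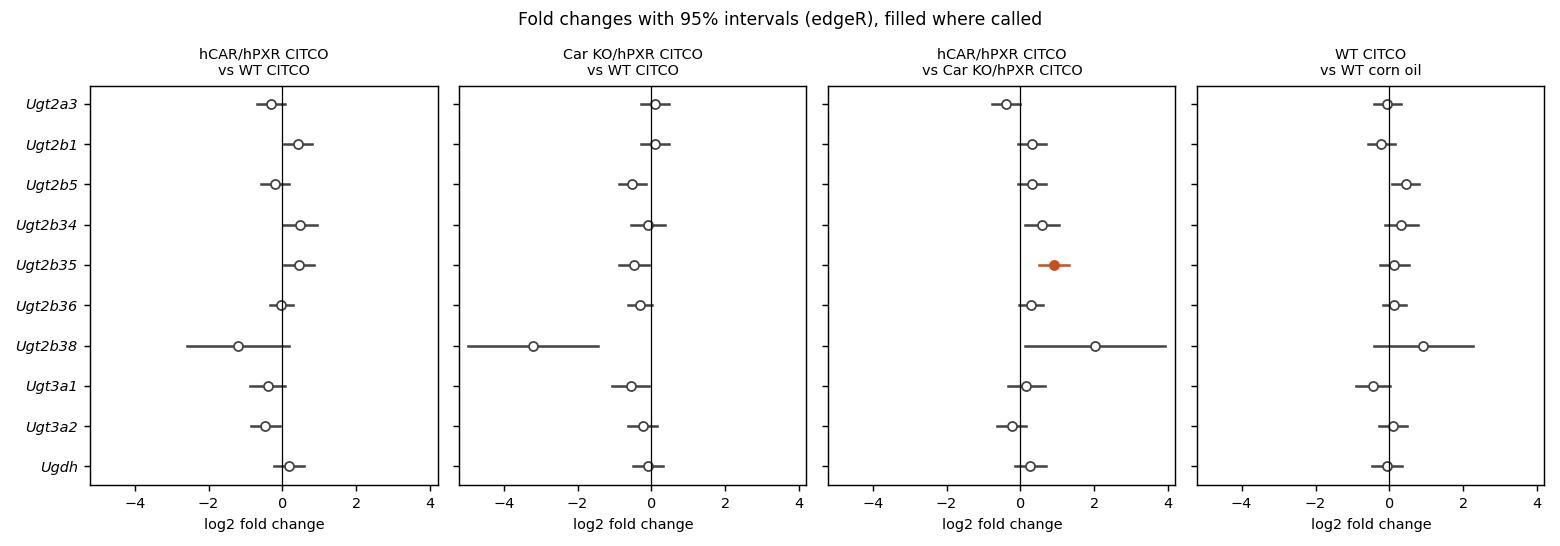
Log2 fold change of each gene in the 4 comparisons with its 95% interval, from edgeR over 12 libraries. The interval of Ugt2b35 between hCAR/hPXR and Car KO/hPXR, from 0.50 to 1.31, belongs to the only call among the 10 genes, and the widest intervals are those of Ugt2b38.

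The human receptors were compared with the mouse receptors, both with CITCO, in hCAR/hPXR against WT mice. Ugt2b1 had a log2 difference of 0.41 (SE 0.18, adjusted p = 0.503, edgeR), Ugt2b34 of 0.48 (SE 0.22, adjusted p = 0.543), Ugt2b35 of 0.45 (SE 0.19, adjusted p = 0.489) and Ugt3a2 of -0.46 (SE 0.19, adjusted p = 0.458). None of the 10 members was called by edgeR or limma, nor any of the 9 to which DESeq2 gave an adjusted p (all but Ugt2b38 in each comparison), against 0.407% of all genes tested. At an unadjusted p under 0.05 edgeR gave 4 members, against 8.81% of all genes, and DESeq2 and limma 4 each. The groups did not overlap for 5 members (13.7% of all genes), with Ugt2b1 and Ugt2b35 higher and Ugt2b5, Ugt3a1 and Ugt3a2 lower in hCAR/hPXR mice. The signs were mixed, 4 positive and 6 negative, with a median of -0.12 against 0.01 over all genes. The sign of Ugt2b36 (-0.03) turned to 0.02 without the TMM factor. With 1 library left out, the signs of Ugt2b36 and Ugdh could also turn. For 2 members the 95% interval lay within a 1.5-fold change and for 9 within a 2-fold change. Of the genes called, 35 in all, 17 and 23 were called without WT CITCO replicates 1 and 2, and 20 without hCAR/hPXR replicate 3. The 4 members at an unadjusted p under 0.05 became 2 without WT CITCO replicate 1 or 3 or hCAR/hPXR replicate 1, and 1 without hCAR/hPXR replicate 2.

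Human PXR without CAR was compared with the mouse receptors in Car KO/hPXR against WT mice, both with CITCO. Ugt2b38 had the log2 difference of greatest size among the 10, -3.21 (SE 0.84, 95% interval -4.97 to -1.45, adjusted p = 0.123, edgeR), with overlapping libraries and Car KO/hPXR counts at about the floor. Over 11 alternatives its adjusted p ran from 1.61e-07 to 0.453, and it was called in 2, with no filter on low counts and without WT CITCO replicate 3 (log2 fold change -3.73, adjusted p = 0.0135). The difference was smaller without WT CITCO replicate 2 (-2.33, adjusted p = 0.453, edgeR) and by limma, which was run on the transformed values as deposited (-0.88, adjusted p = 0.289). By size Ugt3a1 followed with -0.56 (SE 0.24, adjusted p = 0.469, edgeR), then Ugt2b5 with -0.52 (SE 0.18, adjusted p = 0.301) and Ugt2b35 with -0.46 (SE 0.20, adjusted p = 0.469). None of the 10 was called by edgeR or limma, or of 9 by DESeq2, against 0.256% of all genes. At an unadjusted p under 0.05 there were 4 by edgeR (9.3% of all genes), 4 by DESeq2 and 5 by limma. The edgeR tally, and the signs and median that follow, include Ugt2b38, which passed the filter through libraries of other groups, none of them Car KO/hPXR. The groups did not overlap for 2 members, Ugt2b5 and Ugt2b36, both lower (14.2% of all genes). The log2 fold change was negative for 8 members, with a median of -0.27 against -0.004 over all genes, and the 95% interval lay within a 2-fold change for 8 and within a 1.5-fold change for 4. The signs of Ugt2a3, Ugdh, Ugt2b34 and Ugt2b1 could each turn with 1 library left out.

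The counts of this comparison moved with the libraries and settings used. The 22 genes called became 5, 6 and 58 without WT CITCO replicates 1, 2 and 3, and 14 and 10 without Car KO/hPXR replicates 1 and 3. The 4 members at an unadjusted p under 0.05 became 2 without WT CITCO replicate 3 or Car KO/hPXR replicate 1 or 3, and also 2 with all libraries kept, either without the TMM factor or in a fit of only the 2 groups compared. The 3 comparisons of CITCO-treated groups share libraries with each other, and the WT CITCO libraries also enter the comparison with corn oil, so the values stand side by side and are not independent of each other.

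The effect of CITCO against its vehicle could be examined in WT mice. Ugt2b5 had a log2 difference of 0.44 (SE 0.18, 95% interval 0.07 to 0.81, adjusted p = 0.428, edgeR), and Ugt3a1 of -0.44 (SE 0.22, 95% interval -0.90 to 0.02, adjusted p = 0.569). None of the 10 was called by edgeR or limma, or of 9 by DESeq2, against 0.233% of all genes, and Ugt2b5 was the 1 member at an unadjusted p under 0.05 (9.13% of all genes), with 1 by DESeq2 and 1 by limma. The groups did not overlap for 3 members, Ugt2b5 higher and Ugt2b1 and Ugt3a1 lower with CITCO (14.7% of all genes). The log2 fold change was positive for 6 members and negative for 4, with a median of 0.12 against 0 over all genes. The signs of Ugt2a3, Ugt3a2, Ugt2b35 and Ugdh could each turn with 1 library left out. For 5 members the 95% interval lay within a 1.5-fold change, and for 9 within a 2-fold change. The 20 genes called became 7 and 6 without corn oil replicates 2 and 3, and 7, 7 and 54 without WT CITCO replicates 1, 2 and 3, and the members at an unadjusted p under 0.05 became 2 without WT CITCO replicate 3, with no filter on low counts and in a fit of only the 2 groups compared.

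The summed levels of periportal and of cholangiocyte markers were lower in the WT CITCO libraries than in those with corn oil, with no overlap. The gaps were narrow. The nearest libraries had 5894 and 5845 CPM for the periportal sum and 21.95 and 21.4 CPM for the cholangiocyte sum. Among single genes tested, 14.7% had no overlap between these groups. The periportal list of 8 genes, all of which passed the filter, summed to 7707, 6037 and 5894 CPM with corn oil, 5114, 5845 and 4944 in WT CITCO mice, 5033, 5796 and 5540 in hCAR/hPXR mice and 5661, 6717 and 6199 in Car KO/hPXR mice. Pck1 was its most abundant gene and no gene of it was at 0 in all libraries. Of this list Cyp2f2 alone had a higher mean in WT CITCO mice (1143 CPM) than with corn oil (1092). Of 5 cholangiocyte markers 1, Sox9, the most abundant, passed the filter. Their sum was 21.95, 27.5 and 27.2 CPM with corn oil, 21.4, 14.5 and 12.7 in WT CITCO mice, 18.1, 16.2 and 20.02 in hCAR/hPXR mice and 24.8, 19.2 and 23.8 in Car KO/hPXR mice. Krt7 and Epcam were at 0 in all WT CITCO libraries, against low means of 0.20 and 1.51 CPM with corn oil. Krt7 was also at 0 in all hCAR/hPXR libraries. Among these markers Spp1 alone had a higher mean in WT CITCO mice (4.54 CPM) than with corn oil (4.34). The part of these cells in the Ugt2b5, Ugt2b1 and Ugt3a1 differences was not tested.

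Ugdh, which supplies the donor sugar, had log2 differences of 0.27 for hCAR/hPXR against Car KO/hPXR (95% interval -0.14 to 0.69), 0.18 between hCAR/hPXR and WT CITCO (-0.23 to 0.59), -0.09 between Car KO/hPXR and WT CITCO (-0.51 to 0.33) and -0.06 between WT CITCO and corn oil (-0.47 to 0.35). The adjusted p ran from 0.693 to 0.961 (edgeR). Leaving out 1 library could turn the sign in every comparison other than hCAR/hPXR against Car KO/hPXR. No change was detectable at this depth, and the intervals exclude a 2-fold change.

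**Figure D3:**
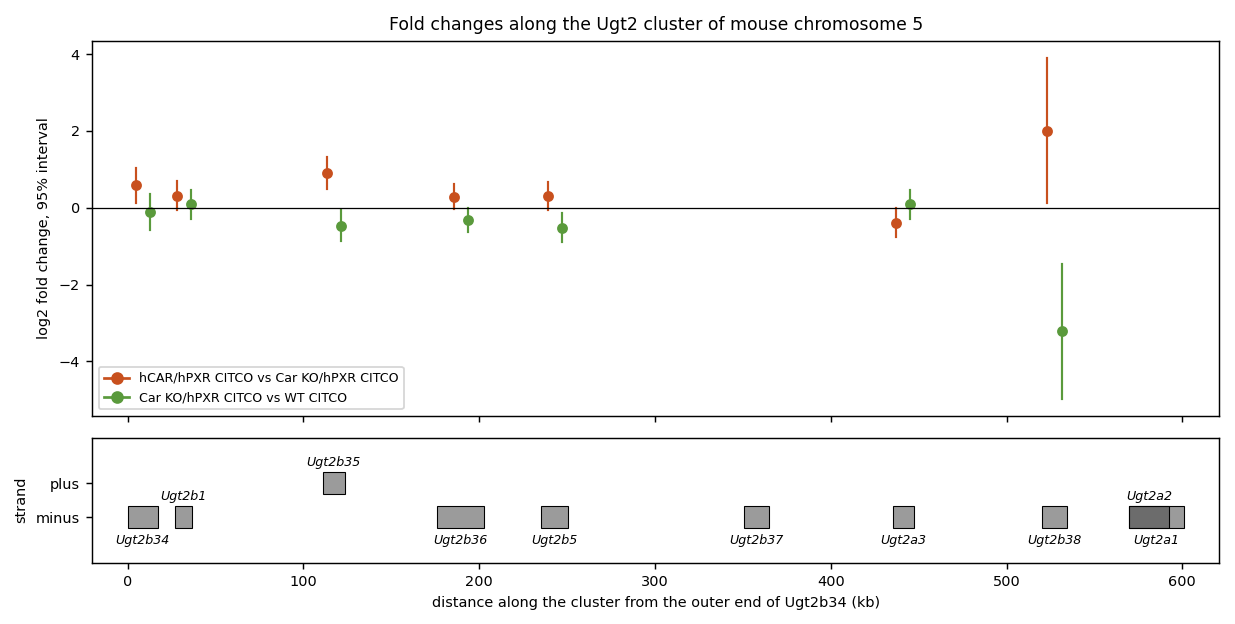
Log2 fold changes with 95% intervals along the Ugt2 cluster of chromosome 5, against distance in kb from the outer end of Ugt2b34, with gene positions and strands beneath. Ugt2b35, the gene on the plus strand, carries the value of 0.91 between hCAR/hPXR and Car KO/hPXR, and its neighbours Ugt2b1 and Ugt2b36 carry 0.32 and 0.29.

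A sum of the 7 Ugt2b genes does not depend on how reads were divided among those 7, though it does on any division with genes outside them. The sum was 2127, 1967 and 1887 CPM with corn oil, 2106, 2401 and 2159 in WT CITCO mice, 2573, 2704 and 2144 in hCAR/hPXR mice and 1622, 2309 and 1701 in Car KO/hPXR mice. In all 4 comparisons the libraries of the groups overlapped. The means were 2474 ± 292.9 CPM (SD, n = 3) in hCAR/hPXR, 2222 ± 157.2 in WT CITCO, 1994 ± 122.2 in WT corn oil and 1877 ± 375.9 in Car KO/hPXR, with neighbours within their spread.

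The sum differed by 0.40 on the log2 scale between hCAR/hPXR and Car KO/hPXR (95% interval 0.03 to 0.77, p = 0.0359, adjusted p = 0.43, edgeR; exact two-sided permutation p = 0.2, n = 3 and 3). The values were 0.16 between hCAR/hPXR and WT CITCO (adjusted p = 0.852, exact permutation p = 0.3), -0.24 between Car KO/hPXR and WT CITCO (0.717, exact permutation p = 0.3) and 0.16 between WT CITCO and corn oil (0.844, exact permutation p = 0.2). With 3 mice against 3 the smallest permutation p is 0.1. The sum was not called in any comparison.

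Within the Ugt2b counts, the shares of Ugt2b5 and Ugt2b1 in WT CITCO mice did not overlap those of any other group. Ugt2b5 made up 31.6 ± 2.44% of the summed counts there (SD, n = 3, 29.4 to 34.2%), and 25.8 ± 2.08% with corn oil, 24.6 ± 0.706% in hCAR/hPXR and 25.9 ± 1.84% in Car KO/hPXR mice, where no library exceeded 27.8%. Ugt2b1 made up 25.5 ± 2.14% in WT CITCO (at most 26.8%), and 33.1 ± 2.97%, 30.5 ± 3.12% and 32.2 ± 0.951% in the same other groups, where no library was under 27.3%. Ugt2b35 made up 6.27 ± 0.683% with corn oil, 6.27 ± 1.59% in WT CITCO, 7.64 ± 0.701% in hCAR/hPXR and 5.34 ± 0.409% in Car KO/hPXR mice, and WT CITCO libraries reached 7.83%, within the hCAR/hPXR range of 7.15 to 8.44%. Ugt2b36 made up 20.9, 20.7, 18.4 and 20.1% on average in the same order, with overlapping libraries. Shares of a sum move against each other, and they were not tested.

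**Figure D4:**
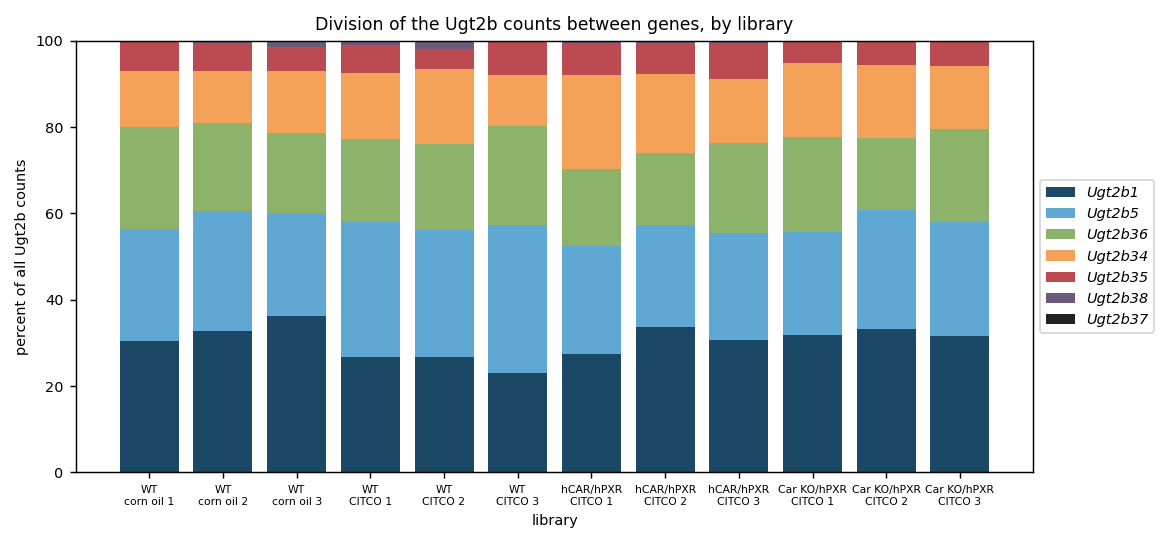
Share of the summed Ugt2b counts held by each Ugt2b gene in each library, in percent. The Ugt2b5 share lies between 29.4 and 34.2% in the WT CITCO libraries and at 27.8% or less in the others.

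Across the 12 libraries the 45 pairs of members had a median Pearson r of 0.18 for log2 CPM, and 31 were positive. The highest values were between Ugt2b5 and Ugt2b36 (r = 0.73), Ugt2b35 and Ugt2b36 (0.71), Ugt2b1 and Ugt2b34 (0.68) and Ugt2b5 and Ugt2b35 (0.67), and the lowest between Ugt2a3 and Ugdh (-0.51). The 12 points share 4 groups and the scaling of each library. Near copies may also share reads, which was not checked. The r values therefore describe the libraries and carry no test.

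**Figure D5:**
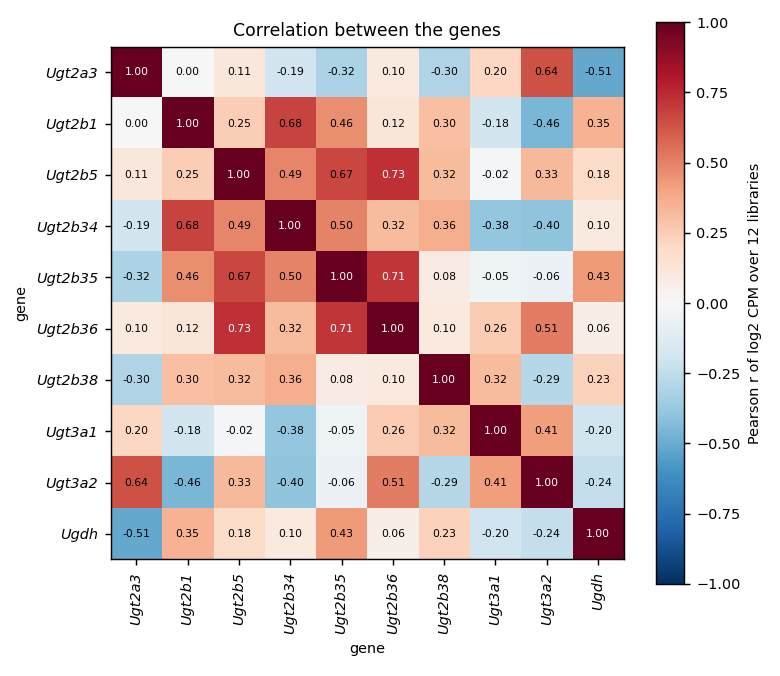
Pearson r of log2 CPM between each pair of genes over 12 libraries, as a colour scale. The highest value is 0.73 for Ugt2b5 and Ugt2b36, and the lowest is -0.51 for Ugt2a3 and Ugdh.

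Over the same 12 libraries, the 3 genes most like each member among those tested had r between 0.836 and 0.924. For Ugt2a3 they were Sco1 (r = 0.919), Apoc4 and Slc39a4; for Ugt2b1 Ywhah (0.91), Bcas3 and Nme1; for Ugt2b5 Trappc13 (0.924), Itgav and Snord13. For Ugt2b34 they were Slc16a12 (0.88), Ppp1r10 and Eif4g2, and for Ugt2b35 2310033P09Rik (0.9), Polr1d and Crem. For Ugt2b36 they were Pnrc1 (0.893), Snord13 and Snord118, and for Ugt2b38 Ywhag (0.857), Inhba and Capza1. For Ugt3a1 they were Zdhhc20 (0.874), Tom1 and Sdc1, for Ugt3a2 Pigr (0.922), Eif5 and Klf9, and for Ugdh Esf1 (0.921), Cnot11 and Xrcc5 (0.836). Each is the best of 8594 genes over 12 points, as a description.

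Other genes of the glucuronidation pathway were followed as lists, whose counts stand against 0.407, 0.256, 0.582 and 0.233% of all genes called and 8.81, 9.3, 10.6 and 9.13% at an unadjusted p under 0.05, in the order hCAR/hPXR against WT CITCO, Car KO/hPXR against WT CITCO, hCAR/hPXR against Car KO/hPXR and WT CITCO against corn oil. Of 9 genes of UDP-glucuronate supply 8 were tested, and 0 were called by edgeR or limma in any comparison, nor any of the 6 to which DESeq2 gave an adjusted p, with 0, 0, 1 and 0 at an unadjusted p under 0.05 in that order. Their median log2 fold changes were 0.06, -0.04, -0.01 and -0.06, against 0.01, -0.004, 0.01 and 0 over all genes tested. Pgm2, a phosphoglucomutase, was the most abundant at 362.1 CPM.

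Both genes of glucuronide hydrolysis were tested, Gusb, the lysosomal β-glucuronidase, and Ces1e, which holds it in the endoplasmic reticulum. Neither was called by edgeR or limma, with 0, 1, 0 and 1 at an unadjusted p under 0.05 in the same order, and medians of 0.22, 0.10, 0.11 and -0.33. Ces1e, the more abundant at 179.7 CPM, had -0.95 between WT CITCO and corn oil (adjusted p = 0.138, edgeR), and was called by DESeq2 there. In the other 3 comparisons DESeq2 gave an adjusted p to 1 gene of the pair and did not call it. Of 8 glucuronide transporters 7 were tested and 0 called by edgeR, DESeq2 or limma, with 2, 0, 1 and 1 at an unadjusted p under 0.05 and medians of -0.14, 0.10, -0.19 and 0.04. Slco1b2, a hepatic uptake transporter, was the most abundant at 1439 CPM. Of 8 genes that use glucuronate 7 were tested and 0 called by edgeR or limma, nor any of the 6 to which DESeq2 gave an adjusted p, with 1, 1, 0 and 0 at an unadjusted p under 0.05 and medians of -0.27, -0.10, -0.25 and -0.04. All 7 were negative between hCAR/hPXR and WT CITCO, where 4161 of the 8594 genes tested were negative. In the other comparisons, in the same order, 4, 5 and 4 of them were negative. Sord, sorbitol dehydrogenase, was the most abundant at 896.2 CPM.

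All 11 transcription factors listed for hepatic Ugt2 genes were tested, and edgeR called 3, 0, 1 and 3 in the same order, against 0.407, 0.256, 0.582 and 0.233% of all genes. The list was chosen with earlier results of these data known, so these calls are a description and no measure of enrichment. These calls fell on Foxa2, Onecut1 and Hhex, factors of liver development. All 3 were lower in hCAR/hPXR than in WT CITCO mice, Foxa2 by 1.25 (log2 fold change -1.25, adjusted p = 0.00961, edgeR), Onecut1 (-2.04, adjusted p = 0.00262) and Hhex (-2.33, adjusted p = 0.0038). All 3 were higher in WT CITCO than with corn oil, Foxa2 by 1.12 (adjusted p = 0.0292), Onecut1 by 3.17 (adjusted p = 0.000195) and Hhex by 1.78 (adjusted p = 0.034). Foxa2 was also lower in hCAR/hPXR against Car KO/hPXR mice (-1.10, adjusted p = 0.0242). Between Car KO/hPXR and WT CITCO 0 of the 11 were called by edgeR, with 4 at an unadjusted p under 0.05 (9.3% of all genes), while DESeq2 called 2 of the 7 with an adjusted p (Onecut1 and Hhex) and limma 1 (Onecut1). For hCAR/hPXR against Car KO/hPXR, DESeq2 called Cebpa beside Foxa2, which edgeR did not (-0.64, adjusted p = 0.147). In the order used for the other lists the medians were -0.35, -0.01, -0.33 and 0.12, and Cebpa was the most abundant at 276.4 CPM.

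Onecut1 was called in both comparisons, and Hhex against WT CITCO, under all 13 alternatives. The Foxa2 call against WT CITCO was lost without WT CITCO replicate 1 (adjusted p = 0.0708, edgeR, 0.000964 to 0.0708 over the alternatives). That of Foxa2 against Car KO/hPXR was lost without hCAR/hPXR replicates 1 (0.0632), 2 (0.0677) or 3 (0.0885) or Car KO/hPXR replicates 1 (0.14) or 3 (0.0627), with adjusted p from 0.00682 to 0.14. Between WT CITCO and corn oil, Foxa2 was lost without corn oil replicates 1 (0.0581), 2 (0.142) or 3 (0.198) or WT CITCO replicates 1 (0.204) or 2 (0.176), and in a fit of only the 2 groups compared (0.0537), with adjusted p from 0.00494 to 0.204. Hhex was lost there without the same 5 libraries (0.1, 0.105, 0.217, 0.204 and 0.232), with adjusted p from 1.46e-12 to 0.232. Whether these factors bear on the Ugt2 genes was not tested. Nor was the part in their calls of the cell types whose marker sums did not overlap in the same comparisons. Between WT CITCO and corn oil these were the periportal and cholangiocyte sums. Neutrophil sums stood apart between hCAR/hPXR and both other CITCO groups. The endothelial sum stood apart for hCAR/hPXR against Car KO/hPXR, where only Kdr and Ptprb of its genes had lower means in hCAR/hPXR mice.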

How the data were processed

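Liver RNA of 12 mice was extracted with Trizol and read with a Lexogen QuantSeq 3′ kit on Ion Torrent. Per the submitters' processing notes, the authors used FastQC 11.7, Trimmomatic 36, STAR 2.5.2 on GRCm38, RSEM 1.3 and DESeq2. The deposited expected counts are RSEM estimates per gene (51912 genes), and the deposited log2 values are DESeq2 variance-stabilised (17859 genes). Symbols came from the second table by Ensembl identifier.

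Expected counts were rounded to whole numbers for the tests and used unrounded for CPM. Genes with a minimum count of 10 (6.5 CPM) in 3 libraries were kept, and 1 model with a mean per group was fitted over 12 libraries by the edgeR 4.0.16 quasi-likelihood test with TMM scaling. A gene was called at an adjusted p (Benjamini-Hochberg, over 8594 genes) under 0.05 and a fold over 1.5. Standard errors were derived from the fold change and F, and log2 CPM used a prior count of 2. Alternatives were DESeq2 1.42.0, limma 3.58.1 on the transformed values, other scalings, no filter, 2 groups only, a replicate block and leaving out each library. R 4.3.3, Python 3.11.15, numpy 2.4.6, pandas 2.3.3, matplotlib 3.10.9 and Biopython 1.88 were used. The code of the test was run on simulated data with the same spread for every gene. That check does not measure power at the small differences seen among the members. Coordinates came from GENCODE M21 on GRCm38, a different release from that of the authors.

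Genes named are the 10 members, other Ugt2 and Ugt3 genes, receptor and induction controls, listed genes called in any comparison or otherwise of highest mean CPM, and the 3 genes most correlated with each member. The members and lists were chosen with earlier results of these data known.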

Additional observations from a re-analysis of the deposited data

How the results depend on the processing

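Of 514 refits of 40 member comparisons, 488 kept their direction and their side of the threshold, 16 changed direction, 7 lost a call and 3 gained one. None of the 10 results that changed direction was called. Without the TMM factor the log2 fold change of Ugt2b36 between hCAR/hPXR and WT CITCO became 0.02. With 1 library left out in turn, values that changed direction ranged from -0.121 to 0.028 for Ugt2b36 and -0.032 to 0.32 for Ugdh (hCAR/hPXR against WT CITCO), from -0.05 to 0.175 for Ugt2a3, -0.23 to 0.06 for Ugdh, -0.321 to 0.082 for Ugt2b34 and -0.11 to 0.20 for Ugt2b1 (Car KO/hPXR against WT CITCO), and from -0.133 to 0.086 for Ugt2a3, -0.068 to 0.317 for Ugt3a2, -0.036 to 0.276 for Ugt2b35 and -0.20 to 0.04 for Ugdh (WT CITCO against corn oil). The cause was not tested.

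In the order hCAR/hPXR against WT CITCO, Car KO/hPXR against WT CITCO, hCAR/hPXR against Car KO/hPXR and WT CITCO against corn oil, edgeR called 35, 22, 50 and 20 genes. With no filter, where 20067 genes were tested, it called 184, 227, 233 and 179, and DESeq2 called 63, 69, 96 and 41. With only the 2 groups compared it called 40 between Car KO/hPXR and WT CITCO. With 1 library left out the counts ranged from 17 to 32, 5 to 58, 10 to 58 and 6 to 54, in fits with fewer samples. Between WT CITCO and corn oil the split of 15 higher and 5 lower became 15 and 9 without the TMM factor. Members called became 1 (Car KO/hPXR against WT CITCO) and 2 (hCAR/hPXR against Car KO/hPXR) with no filter, 0 in the latter without the TMM factor, and ranged from 0 to 1 in each of these comparisons with 1 library left out. The Ugt2b38 call with no filter had an adjusted p of 1.61e-07 and 0.0244 (edgeR), with ranges of 1.61e-07 to 0.453 and 0.0244 to 0.684 over its alternatives. The summed Ugt2b genes were not called under any alternative run, with log2 fold changes from 0.08 to 0.24, -0.42 to -0.15, 0.30 to 0.57 and 0.11 to 0.21 with 1 library left out.

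With the replicate number as a replicate block, 33, 24, 53 and 20 genes were called, and members called in hCAR/hPXR against Car KO/hPXR became 0, with Ugt2b35 at an adjusted p of 0.0572 (edgeR, 0.000507 to 0.213 over its alternatives) and a log2 fold change of 0.91. Of the listed genes, Hhex between WT CITCO and corn oil had an adjusted p of 0.0511 under the block. The labels do not say whether these numbers pair the samples. Same-numbered libraries had correlations from -0.051 to 0.075, with 0 of 12 over 0.1. Yet 8 of 12 correlated best with their own number, a hint from the data and not from the design. The libraries were also deposited replicate by replicate across the groups, so whether the number marks a block was not settled.

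With 3 mice a group and 1167027 to 2341572 counts a library, the 95% interval reached past a 1.5-fold change for at least 5 of the 10 members in each comparison. Ugt2b38 in Car KO/hPXR mice lay near the floor of 3 counts. The division of reads among the near copies was not checked, as reads were not used here.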
